A study of Mus musculus with 6 samples.

Results

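The Hox genes encode homeodomain transcription factors that set the identity of body segments along the head-to-tail axis. Members were the probes whose gene symbol was Hoxa, Hoxb, Hoxc or Hoxd followed by a number. This took 33 probes of 33 genes, 1 probe each, among 16390 named genes and 23473 probes in the table. RNA came from CH12F3-2A, a mouse line derived from a B cell lymphoma that switches from IgM to IgA. Cells received a control siRNA (siControl, 3 samples) or an siRNA against Spt6 (siSpt6, 3 samples) by electroporation. After 24 h all 6 samples were stimulated with CD40 ligand, interleukin 4 and TGF-beta (CIT) for another 24 h. Both groups therefore share the line, the electroporation and the stimulus.

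Hox genes lie in clusters that arose by duplication, and genes of the same number in different clusters are called paralogs. Outside the tissues where they act, they are textbook targets of Polycomb complexes: PRC2 places the mark H3K27me3 and PRC1 compacts the chromatin. MLL-type methyltransferases and the demethylases Kdm6a and Kdm6b oppose them. Early blood progenitors transcribe several Hoxa and Hoxb genes, which are shut down as lymphocytes mature. Spt6 (gene Supt6) is a histone chaperone that moves with elongating RNA polymerase II, and in mouse muscle cells it has been linked to Kdm6a and removal of H3K27 methylation. The arrays bear on whether transcripts of such genes differ after siRNA against Spt6. No chromatin marks were analysed here, so whether Polycomb held these genes in CH12F3-2A cells was not tested.

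The value per probe is a 1-colour (Cy5) array intensity in arbitrary units, and the array medians lie near 30. Each array gave a value for 21526 to 22372 probes, and a blank is a missing value. Log2 intensities correlated at 0.988 to 0.991 within a group and at 0.975 to 0.981 between groups (Pearson's r across probes measured on all arrays, which are not independent replicates). The probe for Supt6 read 33.1, 32.1 and 32.1 in siControl and 25.1, 21.8 and 28.1 in siSpt6. These groups did not overlap, but the log2 difference of -0.38 (SE 0.13) did not pass once adjusted over the array (limma adjusted p = 0.0973). Of 10 measured B cell markers none was below an intensity of 5 on all arrays. Among them 2 rose (Cd79b and Blk) and 2 fell (Cd22 and Fcer2a), 40.0% called against 17.0% of all genes. The median log2 level of these markers, 9.17, lay in the brightest of 5 equal classes of tested probes, where 28.8% were called. The summed intensity of the markers was 12120 to 14100 in siControl and 15650 to 17290 in siSpt6. Most of that gap was Cd79b, with means of 5787 and 8455. In bulk RNA, fewer cells of a type and less RNA per cell cannot be told apart. Separate cultures are not mentioned in the labels, so a p-value reflects the scatter of these particular samples and that scatter may be technical. The protocols of both groups are worded differently and do not say whether their arrays were run together, so a batch by group cannot be told apart from the siRNA.

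Most Hox probes were dim. The siControl mean was under 10 for 19 of 33 probes, from 10 to 100 for 9, and above 100 for 5 (Hoxa7, Hoxa11, Hoxc6, Hoxc9 and Hoxd3). Hoxa9, Hoxa13, Hoxd11 and Hoxd12 had a value on too few arrays to be tested, with no reading above 2.68, and Hoxd13 was blank on 1 array. Probes that were blank on some but not all arrays had a median reading of 1.85, and 95% of their readings lay below 4.36. The table has no stated detection limit, and intensities of different probes do not rank their transcripts. Of the 29 tested Hox probes, 10 were brighter than the median tested probe. Without a detection limit these readings do not show which Hox genes were transcribed and which were silent. Whether the brighter probes read only their own transcript was not tested.

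**Figure D1:**
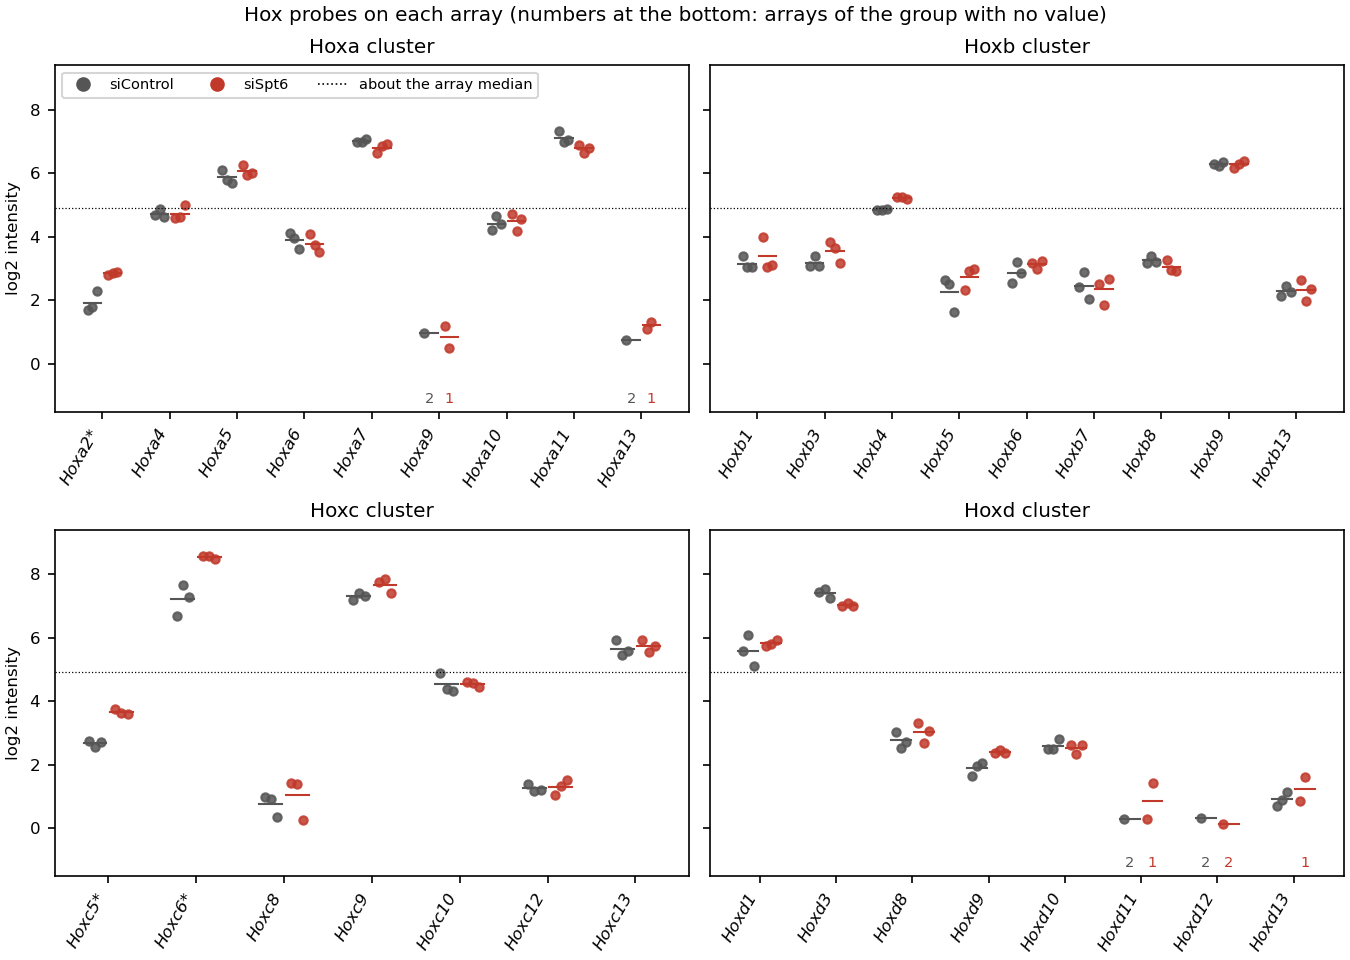
Log2 intensity (y axis) of every Hox probe on each array, by cluster; grey points are siControl, red points siSpt6, bars are group means of log2 values, digits at the bottom count arrays with no value and an asterisk marks a probe past the test. Hoxc5, Hoxc6 and Hoxa2 lie higher on each siSpt6 array than on the highest siControl array, while most other probes overlap between groups.

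The groups were compared by a linear model on log2 intensity, fitted to the 21584 probes that had 2 or 3 values in both groups. Of 29 tested Hox probes, 3 rose in siSpt6 (Hoxc6, Hoxc5 and Hoxa2) and 0 fell (limma, Benjamini-Hochberg adjusted p under 0.05 over all probes). Among all tested probes 16.3% were called, 7.43% higher and 8.90% lower. The Hox share called, 10.3%, was therefore below that of the array. At an unadjusted p under 0.05, 5 Hox probes were higher and 2 lower, where 30.3% of all probes passed. The median log2 difference of the Hox probes was 0.20, against 0.01 for all tested probes, and 21 of 29 differences were above 0, against 50.8% of all probes. The Hox median was 0.06 without siControl replicate 3, 0.08 without siSpt6 replicate 1 and 0.13 without siSpt6 replicate 3, and 0.14 over Hox probes with a value on all arrays. Without the 3 that rose, the median of the other 26 was 0.07, with 18 above 0. Of the 28 Hox probes measured on all 6 arrays, 5 had siSpt6 values above every siControl value and 3 had values below, where 16.9% and 20.4% of all such probes did (37.3% in either direction).

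Dim probes were called less often than bright ones. Tested probes were therefore ranked by mean log2 intensity and divided into 5 classes of equal size. From the dimmest class to the brightest, 5.68%, 10.1%, 15.9%, 21.1% and 28.8% of probes were called. The share called higher was 3.92%, 7.62%, 9.47%, 9.54% and 6.58%, and the share called lower 1.76%, 2.52%, 6.46%, 11.5% and 22.2%, so lower calls gathered among bright probes. Their median log2 differences were 0.08, 0.09, 0.02, -0.03 and -0.18. The classes held 7, 9, 6, 6 and 1 Hox probes. With each class weighted by its number of Hox probes, 13.2% of like-bright probes were called, 7.47% higher and 5.70% lower, against 10.3% of Hox probes, all higher. Hox medians were 0.29, 0.26, 0.07 and -0.11 in the 4 dimmer classes, and the 1 Hox probe of the brightest class, Hoxc6, was at 1.33, opposite in sign to the median of its class. Within its own class, a Hox difference lay above the 75th percentile for 8 of 29 probes, above the 90th for 3 (Hoxc6, Hoxa2 and Hoxc5) and below the 25th for 3.

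**Figure D2:**
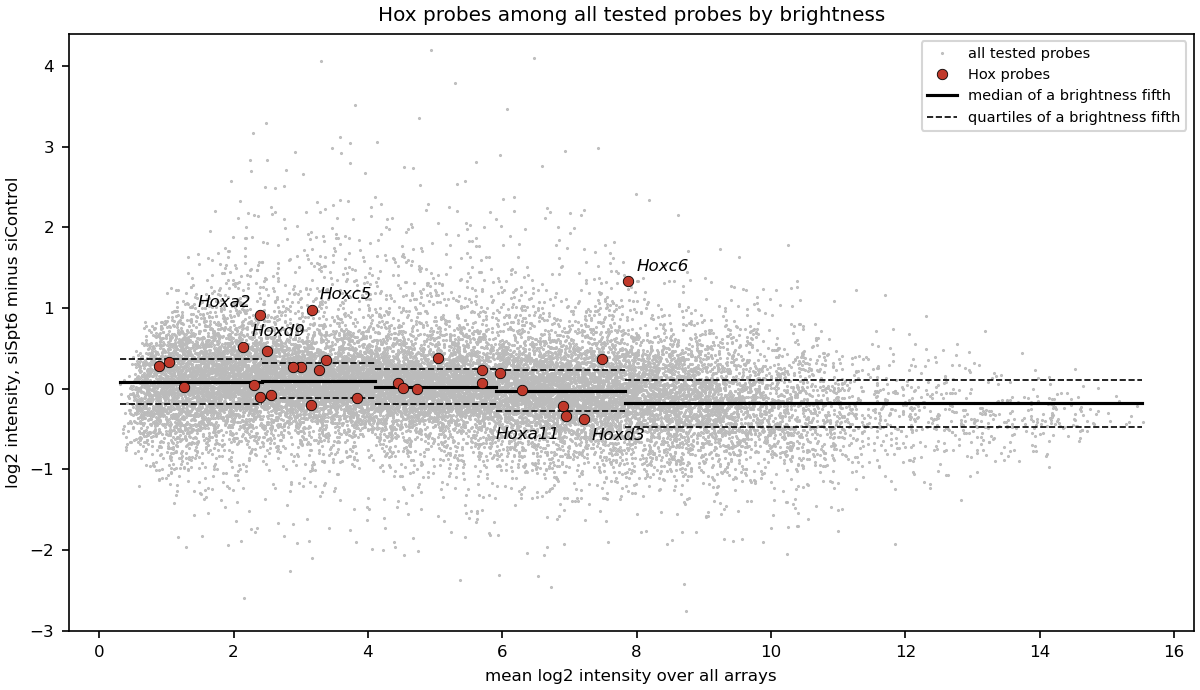
Log2 difference between groups (siSpt6 minus siControl, y axis) against mean log2 intensity over all arrays (x axis); grey points are all tested probes, red points the Hox probes, and lines the median (solid) and quartiles (dashed) of each brightness class. Hoxc6, Hoxc5 and Hoxa2 stand well above the upper quartile of their classes, and most Hox probes lie near or between the quartiles.

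The rises in the Hoxc cluster came from adjacent genes. Hoxc6, which patterns the thoracic region and forelimb level, read 103, 202 and 154 in siControl and 380.4, 380.4 and 354 in siSpt6. All siSpt6 values were above the highest siControl value, and the siControl arrays were the less even group. The log2 difference was 1.33 (SE 0.24), a 2.52-fold rise (limma adjusted p = 0.0124). Hoxc5, its neighbour on the side of the lower numbers, read 6.76, 5.84 and 6.58 in siControl and 13.5, 12.3 and 12.0 in siSpt6. Its groups were tight and well apart, at 6.39 ± 0.485 and 12.6 ± 0.769 (SD, n = 3 each). The log2 difference was 0.98 (SE 0.12), a 1.97-fold rise (limma adjusted p = 0.00354). In human cells HOXC4, HOXC5 and HOXC6 can be transcribed from a shared start. Both calls held with each array left out (limma adjusted p up to 0.0455 for Hoxc6 and 0.0170 for Hoxc5). Hoxc5 was among the dim probes, and the background in its readings is not known. With a pseudocount of 2.66 its log2 difference was 0.75 and still passed (limma adjusted p = 0.0020).

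Next to them, Hoxc8, a thoracic patterning gene, was close to the dimmest readings, at 1.96, 1.88 and 1.28 in siControl and 2.69, 2.64 and 1.20 in siSpt6. These groups overlapped, and at such readings a change could not be resolved (log2 difference 0.29, 95% interval -0.53 to 1.10). Hoxc9, a gene of thoracic motor neurons, was bright, at 146, 170.4 and 158 in siControl and 215, 232 and 168 in siSpt6. Its groups overlapped through siSpt6 replicate 3, and the log2 difference of 0.36 (SE 0.16) did not pass (limma adjusted p = 0.171). Further along, Hoxc10, Hoxc12 and Hoxc13 had differences of 0.00, 0.03 and 0.08. In this cluster 2 of 7 probes rose, and all 7 differences were above 0. Whether the cluster differs from the others was not tested.

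In the Hoxa cluster, Hoxa2 rose. This gene sets the identity of the hindbrain and the second pharyngeal arch. Its probe read 3.22, 3.49 and 4.94 in siControl and 6.96, 7.25 and 7.37 in siSpt6, with no overlap. The log2 difference was 0.91 (SE 0.18), a 1.89-fold rise (limma adjusted p = 0.0162). Hoxa2 no longer passed when siControl replicate 2 was left out (limma adjusted p = 0.0535), when siSpt6 replicate 2 was left out (limma adjusted p = 0.0544) or after cyclic loess normalization (limma adjusted p = 0.0508). Its siControl readings were near those of partly blank probes, and with a pseudocount of 2.66 the log2 difference was 0.60. The 6 other tested Hoxa probes did not pass, with differences from -0.33 to 0.20. Among them Hoxa11, a gene of the forearm and uterus, had the largest negative difference. It read 160, 127 and 132 in siControl and 119, 100.5 and 111 in siSpt6, all lower than in siControl, but the difference of -0.33 (SE 0.14) missed the threshold (limma adjusted p = 0.165). Hoxa7, transcribed in MLL-rearranged leukaemia together with Hoxa9, also had lower values on every siSpt6 array (129 ± 4.10 against 112 ± 10.6, SD, n = 3 each, limma adjusted p = 0.295). Hoxa5, needed for lung development, and Hoxa10, needed in the uterus, had differences of 0.20 and 0.07.

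No Hoxb probe passed the test among 9, with 1 at an unadjusted p under 0.05, and their median difference was 0.23. The 1 was Hoxb4, which promotes expansion of blood stem cells. It read 28.4, 28.8 and 29.1 in siControl and 37.8, 38.4 and 36.2 in siSpt6. Both groups were even and did not overlap. The log2 difference of 0.38 (SE 0.10), 1.30-fold, lay just outside the threshold (limma adjusted p = 0.0513) and passed in 6 of 17 alternatives. Hoxb5, a gene that marks long-lived mouse blood stem cells, read 6.28, 5.76 and 3.12 in siControl and 5.00, 7.52 and 7.87 in siSpt6. Its groups overlapped (log2 difference 0.46, SE 0.31, limma adjusted p = 0.369), and the difference was 0.15 without siControl replicate 3. The other 7 lay between -0.21 (Hoxb8) and 0.36 (Hoxb3).

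No Hoxd probe passed among 6 tested, with 2 at an unadjusted p under 0.05, and they had opposite signs. Hoxd9, a lumbar and limb gene, read 3.11, 3.84 and 4.17 in siControl and 5.19, 5.52 and 5.16 in siSpt6, without overlap. Its log2 difference of 0.52 (SE 0.14) was the nearest of all to the threshold from outside (limma adjusted p = 0.0502). Hoxd3, which shapes the first vertebrae of the neck, read 172, 183 and 152 in siControl and 127, 135 and 128 in siSpt6. All its siSpt6 values were lower, a difference of -0.38 (SE 0.12, limma adjusted p = 0.0830). Hoxd9 passed in 2 of 16 alternatives and Hoxd3 in 2 of 17. Hoxd1 lay in the middle brightness class and was uneven in siControl (47.4, 67.1 and 34.7). Hoxd8, Hoxd10 and Hoxd13 had differences of 0.27, -0.08 and 0.33.

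**Figure D3:**
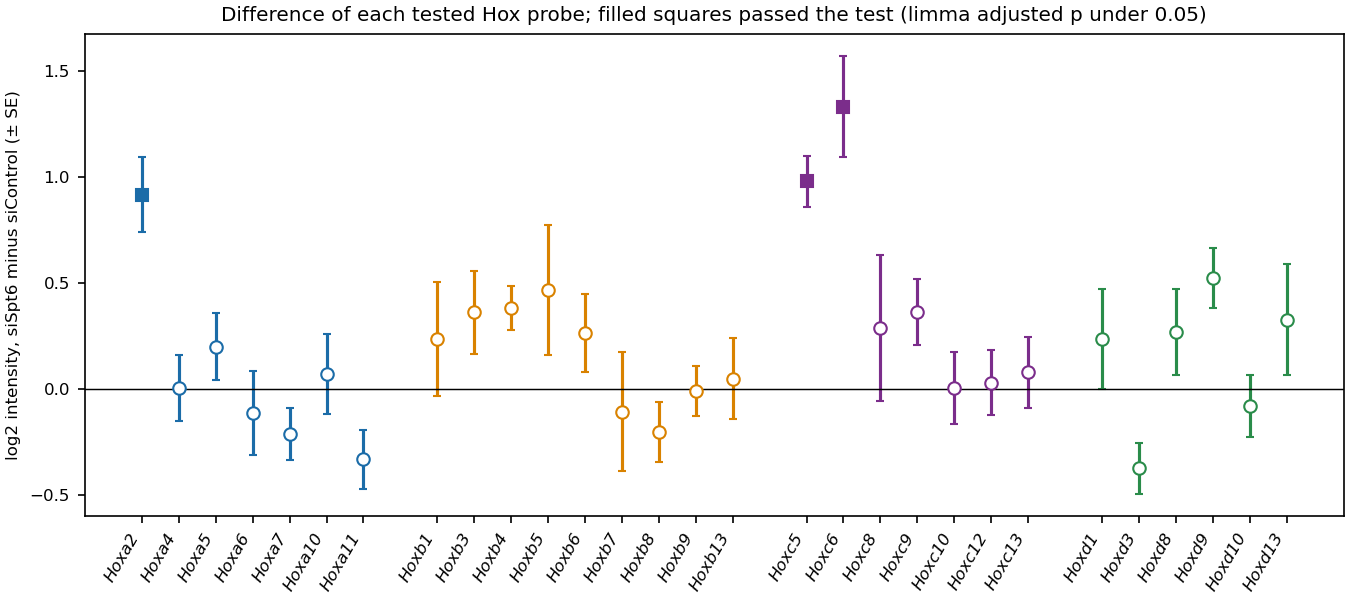
Log2 difference of each tested Hox probe (siSpt6 minus siControl, y axis) with its standard error, in paralog order within each cluster (Hoxa blue, Hoxb orange, Hoxc purple, Hoxd green). Filled squares passed the test (Hoxa2 at 0.91, Hoxc5 at 0.98, Hoxc6 at 1.33); open circles did not, and they run from -0.38 to 0.52.

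Paralogs of Hoxc5 and Hoxc6 had smaller differences in the other clusters. For paralog group 6, Hoxc6 rose by a log2 difference of 1.33, while Hoxa6 was at -0.12 and Hoxb6 at 0.26. For group 5, Hoxc5 was at 0.98, Hoxb5 at 0.46 and Hoxa5 at 0.20. The difference between paralogs was not tested. By position, 1 of 7 probes of groups 1 to 4 rose, 2 of 11 of groups 5 to 8 and 0 of 11 of groups 9 to 13 (2 of these 11 at an unadjusted p under 0.05). Among all tested probes 7.43% rose, and 30.3% had an unadjusted p under 0.05. A pattern by position was not tested. For the 26 Hox probes that were not called, the 95% interval of the difference had an upper end below 1, a 2-fold rise, in 24. The exceptions were Hoxb5 and Hoxc8, with upper ends of 1.19 and 1.10. Blanks were a little fewer in siSpt6 for Hox probes and for the array as a whole: 8 of 99 Hox readings were blank in siControl (8.08%) and 6 of 99 in siSpt6 (6.06%), against 6.98% and 5.70% of all readings.

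RefSeq starts on GRCm38.p6 were matched for 19 of the 33 genes, with 21 promoters of 250 bases before the start. Their median count of CpG dinucleotides was 13, from 2 to 35, against 6 over 32851 promoters of all genes, and their median observed-to-expected CpG ratio was 0.759 against 0.373. CpG-rich starts are a known feature of genes that Polycomb binds in mammals. Hoxa2, the gene that rose and has an entry, is shown beside Hoxd9 and Hoxd3, which came nearest to the threshold among higher and among lower values, 5′ to 3′ with CpG dinucleotides in capitals.
Hoxa2, chr6:52164832-52165081, minus strand: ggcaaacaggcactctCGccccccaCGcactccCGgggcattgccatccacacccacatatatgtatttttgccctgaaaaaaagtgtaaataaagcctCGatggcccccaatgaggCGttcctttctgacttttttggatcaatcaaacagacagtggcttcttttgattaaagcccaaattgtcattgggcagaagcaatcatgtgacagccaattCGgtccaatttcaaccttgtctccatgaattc
Hoxd9, chr2:74697513-74697762, plus strand: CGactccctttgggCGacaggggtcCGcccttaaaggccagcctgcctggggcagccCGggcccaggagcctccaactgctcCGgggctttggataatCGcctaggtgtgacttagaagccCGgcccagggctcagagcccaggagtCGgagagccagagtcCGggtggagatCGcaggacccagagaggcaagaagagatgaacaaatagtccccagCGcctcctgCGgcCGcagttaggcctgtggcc
Hoxd3, chr2:74711743-74711992, plus strand: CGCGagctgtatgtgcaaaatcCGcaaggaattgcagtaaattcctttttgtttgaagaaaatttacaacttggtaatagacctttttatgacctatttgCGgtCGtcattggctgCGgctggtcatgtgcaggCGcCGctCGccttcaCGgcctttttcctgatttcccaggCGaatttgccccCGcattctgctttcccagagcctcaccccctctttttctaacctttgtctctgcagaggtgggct

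The Hoxa2 window held 6 CpG dinucleotides, the Hoxd9 window 13 and the Hoxd3 window 12, all at or below the Hox median. Short motifs were searched on both strands. CCAAT occurred in 13 of 21 Hox promoters (61.9%) against 33.9% of all promoters, with 4 matches in Hoxa2, 1 in Hoxd3 and none in Hoxd9. The Pbx-Hox type motif TGATNNAT was in 4 of 21 (19.0%) against 7.68%, among them Hoxa2. TATAAA was in 3 of 21 (14.3% against 12.4%), GGGCGG in 9 (42.9% against 32.7%), CACGTG in 4 (19.0% against 6.02%) and GAGAG in 11 (52.4% against 54.7%). These matches are descriptions of letters, not of bound factors. The motifs were not tested against the expression differences.

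Genes flanking the clusters were read by position, as the 6 protein-coding genes on either side of each cluster, a choice made after the data were seen. Of 41 tested 4 rose and 7 fell, 26.8% called against 17.0% of all genes, with a median difference of -0.12. Their median log2 level, 7.26, lay in the brightness class below the brightest. In that class 21.1% of probes were called, and in the brightest 28.8%. The genes that fell were Cbx5, Hnrnpa3, Snx11, Atp5g1, Hnrnpa2b1, Cdk5rap3 and Cbx1, with differences from -1.20 (Cbx5) to -0.55 (Cbx1), and Nfe2l2 and Gip were among those that rose. The genes next to each cluster were as follows. Calcoco1, a coiled-coil protein known from autophagy of the endoplasmic reticulum, lies beyond Hoxc13, at the end of the cluster away from Hoxc5 and Hoxc6. It rose 2.50-fold from 14.9 ± 1.60 to 37.1 ± 1.98 (SD, n = 3 each, limma adjusted p = 0.00160). Skap2, an adaptor of immune receptor signalling that flanks the Hoxa cluster, rose 1.70-fold from 555 ± 22.8 to 945 ± 102 (limma adjusted p = 0.00888). The other 6 immediate neighbours did not pass, namely Smug1, Evx1, Ttll6, Skap1, Evx2 and Mtx2, with differences from -0.27 (Mtx2) to 0.23 (Ttll6). Evx1 and Evx2 are homeobox genes at the outer ends of the Hoxa and Hoxd clusters and Polycomb targets themselves. Their differences were -0.19 and -0.15.

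Other developmental regulators that Polycomb silences in most differentiated cells (Pax, Sox, Fox, Lhx, Dlx, Tbx, Irx, Nkx and similar families, 160 listed) gave 114 tested genes. Of these 7 rose and 3 fell, where 7.40% of all genes rose and 9.65% fell (17.0% called, 1 probe per gene). Their median log2 difference was 0.09. Most were dim, with 76 of the 114 in the 2 dimmest brightness classes, where 5.68% and 10.1% of probes were called. The rises with the smallest adjusted p were Lhx9, a LIM-homeobox gene of the gonad (1.37 ± 0.133 to 3.25 ± 0.299, SD, n = 3 each), Lbx2, Vax2 and Dlx4, with differences of 1.24, 1.12, 0.84 and 0.97. The falls were Dlx1, Foxl2 and Foxc2, with differences of -0.67, -0.65 and -0.60. Lhx9 and Vax2 sat at the dimmest readings of the array, and with the pseudocount their differences were 0.55 and 0.38. Leaving out siControl replicate 1 brought the count from 10 to 3, siSpt6 replicate 2 to 5, and siControl replicate 3, siSpt6 replicate 1 or siSpt6 replicate 3 to 6 each. Lhx9 and Lbx2 kept their calls in all 16 alternatives in which they were tested.

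Of 41 Polycomb genes, which carry out the silencing, 2 rose and 2 fell, a share of 9.76% called against 17.0% of all genes, with a median difference of 0.00. Their median log2 level, 6.52, lay in the brightness class below the brightest, where 21.1% of probes were called. Pcgf6, a subunit of a variant PRC1, fell from 398 ± 55.2 to 221 ± 24.4 (SD, n = 3 each, log2 difference -0.85, limma adjusted p = 0.0114). Rbbp7, a histone-binding subunit of PRC2, fell by 0.75 on the log2 scale, but its difference was -0.42 after quantile normalization and did not pass (limma adjusted p = 0.0680). Cbx7 and Jarid2 had differences of 0.74 and 0.52 and were called, but held in 1 and 0 of 6 fits that left out an array. Of the other PRC2 core subunits, the catalytic Ezh2 had a difference of -0.52 (limma adjusted p = 0.0606), Suz12 of -0.14 and Eed of 0.07, none of them called. The PRC1 ligase Rnf2 was at 0.27 and Bmi1 at 0.51 (limma adjusted p = 0.0763). Without any 1 array the list's count fell to 2, except without siSpt6 replicate 2, where it was 3.

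Of 21 genes listed for the MLL family, its complexes and the H3K27 demethylases, 1 rose and 1 fell, 9.52% called against 17.0% of all genes. Their median log2 level, 7.2, lay in the same brightness class as that of the Polycomb genes (21.1% of probes called). Kmt2e, of the Kmt2 (MLL) family by name, was at 0.52 and Men1, a subunit that ties MLL to chromatin, at -0.58 (limma adjusted p = 0.0272 and 0.0312). Without any 1 array the list's count was 0, except without siSpt6 replicate 3, where it was 1. Kmt2a, whose product MLL keeps Hox genes active, was at 0.28, Kdm6a at 0.22 and Kdm6b at 0.22, none called. Of 8 tested Hox cofactor genes 2 were called, where 17.0% of all genes were. The median log2 level of the cofactor genes, 6.045, also lay in the class with 21.1% of probes called. Pbxip1, which binds Pbx proteins and hinders their contact with DNA, rose from 210 ± 15.5 to 321 ± 6.90 (SD, n = 3 each, limma adjusted p = 0.0134). Tgif2, a repressor of the same homeobox class as Meis and Pbx, had a difference of -0.52 and did not pass in the 6 fits that left out an array (limma adjusted p from 0.0547 to 0.104). The partners Pbx2 and Pbx3 were at -0.14 and 0.15. Meis1, which acts with Hoxa9 in blood progenitors, had a value on 1 array of each group and was not tested. The list's count of 2 was 0 without siControl replicate 1 and 1 without any other array.

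**Figure D4:**
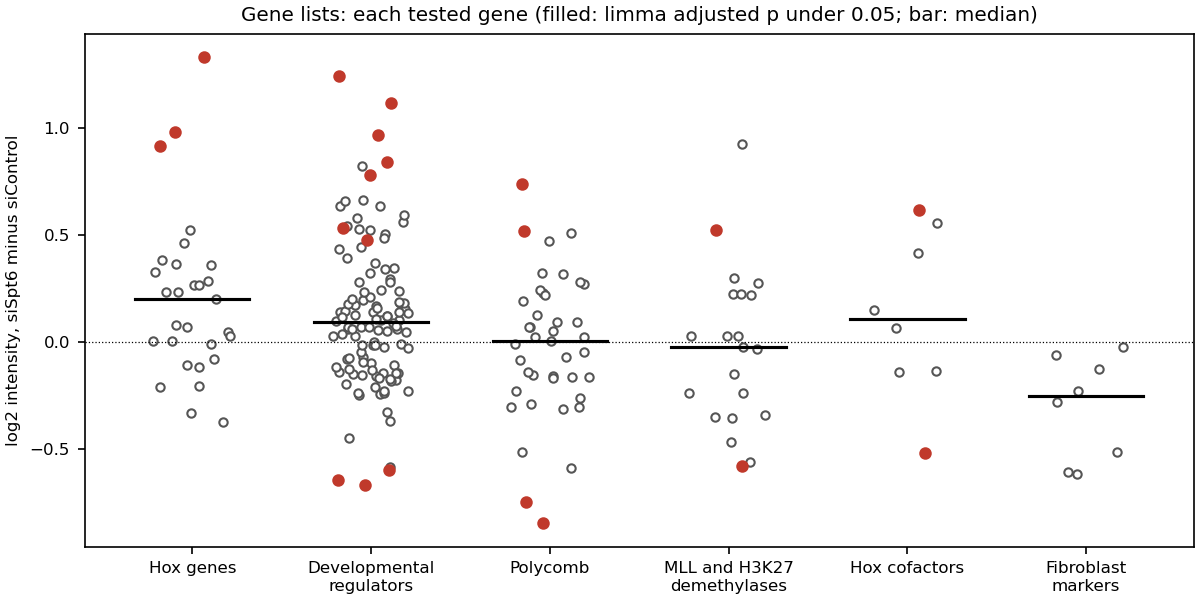
Log2 difference of each tested gene (siSpt6 minus siControl, y axis) in 6 gene lists; filled red points passed the test, open points did not, and bars are list medians. Hox genes have a median of 0.20 with 3 filled points, all above 0; the other lists have filled points on both sides of 0, and the fibroblast markers none.

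Markers of cells that transcribe Hox genes were read in the same fit. Of 8 tested fibroblast markers 0 rose and 0 fell (limma; 1 at an unadjusted p under 0.05, lower in siSpt6), Pdgfra was blank on all arrays, and the summed intensity of the others was 116 to 166 in siControl and 106 to 117 in siSpt6. The highest siControl sum held a single Dcn reading of 48.8, on siControl replicate 2. All 8 differences were below 0, with a median of -0.26. Among stem and progenitor markers, 1 of 5 tested rose (20.0% called against 17.0% of all genes). All 5 lay in the 2 dimmest brightness classes, where 5.68% and 10.1% of probes were called. The receptor tyrosine kinase gene Flt3 went from 2.74 ± 0.567 to 13.2 ± 3.88 (SD, n = 3 each, limma adjusted p = 0.00237). The summed intensity of these markers was 15.6 to 18.7 in siControl and 27.4 to 36.1 in siSpt6 (6 measured), and most of that gap was Flt3. Kit read 7.84 on siSpt6 replicate 2, against 2.87 and 2.85 on the other siSpt6 arrays. Gata2 and Meis1 were near the readings of partly blank probes. Of 7 myeloid markers 2 rose, Fcgr3 and Csf3r, 28.6% called against 17.0% of all genes. Of the 7, 5 lay in the 2 dimmest brightness classes (5.68% and 10.1% of probes called), among them Csf3r. Fcgr3 lay in the class below the brightest (21.1% called). The summed intensity of the 7 markers was 131 to 150 in siControl and 217 to 240 in siSpt6. Most of that gap was Fcgr3, with means of 60.6 and 142. The other myeloid markers did not pass, with differences of 0.39 (Adgre1), 0.16 (Mpo), 0.12 (Csf1r), -0.24 (Cd14) and -0.55 (Itgam). Cd14 was blank on siControl replicate 2, Mpo on siControl replicate 3 and Itgam on siSpt6 replicate 2. Of 6 T cell and 2 epithelial markers 0 were called, with 0 at an unadjusted p under 0.05. The part of these markers in the Hox differences was not tested.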

How the data were processed

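Total RNA from 6 samples was labelled with Cy5 and hybridised to 1-colour TORAY arrays, per the labels' protocols. The authors deposited linear intensity values, 1 column per array. How background was corrected and arrays were scaled is unstated (not given in the sources used here). Array medians differed by 0.00109 on the log2 scale, so the deposited intensity values were used as they stood, and log2 was taken without a pseudocount. Symbols came from the platform table and were updated with RefSeq (GRCm38.p6): 16631 probes had 1 symbol and 6842 had none.

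Group was the single term of a model fitted with limma 3.58.1 (lmFit and eBayes) in R 4.3.3 to 21584 probes with a value on at least 2 of 3 arrays per group, two-sided, with Benjamini-Hochberg adjustment and a threshold of 0.05. The fit was tested on simulated data. Means ± SD are of linear intensities, folds of log2 differences. Genes outside the Hox family are given by their brightest probe. Named were Hox genes past the threshold, the 6 with the largest differences and the 4 brightest, with full values; from each list up to 4 called genes per direction; and Supt6. Other genes named were chosen after their values were seen. Members, lists and rules were chosen with earlier results of these data known. The precision is limited by 3 arrays per group.

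Alternatives were quantile, cyclic loess and median scaling, a pseudocount, filters on dim and on incomplete probes, blanks at the lowest value of their array, weights per array, the replicate block, eBayes with its trend and robust options, each array left out, other thresholds and, added after seeing the data, a minimum of 1 value per group.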

Additional observations from a re-analysis of the deposited data

How the results depend on the processing

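Signs were followed under the alternatives for Supt6, Hoxa2, Hoxa11, Hoxb4, Hoxb5, Hoxc5, Hoxc6, Hoxc9, Hoxd3, Hoxd9, Skap2 and Calcoco1. The called genes named from the developmental, Polycomb, MLL and cofactor lists were followed too. None of these log2 differences, nor the Hox median, changed sign. Other named genes were not followed. Hoxc6 kept its call in all 17 and Hoxc5 in all 16 in which it was tested; Hoxa2 kept it in 13 of 16. The count of 3 called Hox probes was 2 to 3 with 1 array left out, 5 with only complete probes, with trend and robust options or with array weights, 6 at an adjusted p under 0.1, and 1 (Hoxc6) with an added log2 difference of at least 1. A lower Hox probe, Hoxd3, was called with bright probes only and with trend and robust options. The minimum of 1 left 971 of 3525 calls over all probes. Leaving out 1 array gave 2099 to 2522 calls over all probes, 3 to 10 among developmental regulators, 2 to 3 among Polycomb genes, 0 to 1 among MLL and demethylase genes and 0 to 1 among Hox cofactors. Polycomb calls numbered 7 with the pseudocount, with bright probes only and with trend and robust options, and developmental calls 5 with bright probes only, 2 higher and 3 lower against 7 and 3. Quantile and cyclic loess scaling moved the share of higher calls over all probes from 45.5% to 57.3% and 53.6%, so the majority turned from lower to higher, and the Hox calls under both scalings were all higher. The Hox median difference lay between 0.06 and 0.22. Supt6 passed with cyclic loess alone (-0.42, limma adjusted p = 0.0491). The cause of these shifts was not tested.

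The main fit did not pair arrays by replicate number. Deviations from group means correlated at 0.351, 0.076 and 0.262 between same-numbered arrays and at -0.292 to 0.016 between others. Each array correlated best with its own number. Whether same-numbered arrays were paired was not tested. With the replicate block 3594 probes were called, with the same 3 Hox genes, and 1 Hox cofactor in place of 2. Dim probes limit the precision, since no measure of signal over background was used.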
